A study of Homo sapiens with 6 samples.

Results

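The NRF2 antioxidant pathway and glutathione genes were compared between NCI-H1650Re and NCI-H1650 cells. The genes were chosen by name, with earlier results of these data known: NFE2L2, KEAP1, NQO1, GCLC, GCLM, TXNRD1, SRXN1, HMOX1, SLC7A11 and GPX3. Of these 10, 9 had values among the 12659 genes of the authors' expression table, and SRXN1 was not analysed here. Both are human lung cancer cultures, written NCI_H1650Re and NCI_H1650 in the sample titles, in a series on transformation to small cell lung cancer. The labels call NCI-H1650Re post-SCLC and NCI-H1650, an established lung adenocarcinoma line, pre-LUAD; no drug or other treatment is given for either, and the cell line field reads NCI_H1650 for both. Polyadenylated RNA was sequenced in 3 libraries per line, and the comparison asks which genes differ between the 2 states. How NCI-H1650Re was obtained, and whether it is a single clone, the labels do not say.

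NRF2, the product of NFE2L2, is a transcription factor that switches on genes for glutathione synthesis, thioredoxin reduction, quinone detoxification and haem breakdown. In resting cells the adaptor KEAP1 binds NRF2 and hands it to a CUL3 ubiquitin ligase for destruction, and oxidants or electrophiles modify KEAP1 so that NRF2 escapes. The pathway is therefore controlled mainly at the level of NRF2 protein, which RNA sequencing does not measure. In lung cancer it is known for activating mutations of NFE2L2 and inactivating mutations of KEAP1, and for its part in drug resistance. SLC7A11, TXNRD1 and other target genes also respond to other stress factors, SLC7A11 to ATF4 among them.

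NRF2 binds, with a small MAF partner, the antioxidant response element, whose core is TGACNNNGC on one strand and GCNNNGTCA on the other. The promoter windows below, 250 bases before to 50 bases after a RefSeq transcription start (GRCh38.p14), are shown for the members that changed between the lines and have an entry, and for GCLM as a member that holds the core and did not pass. They are read 5′ to 3′ on the gene's strand, with each match to the core on either strand in capitals.
TXNRD1, upstream start, chr12:104215529-104215828, plus strand: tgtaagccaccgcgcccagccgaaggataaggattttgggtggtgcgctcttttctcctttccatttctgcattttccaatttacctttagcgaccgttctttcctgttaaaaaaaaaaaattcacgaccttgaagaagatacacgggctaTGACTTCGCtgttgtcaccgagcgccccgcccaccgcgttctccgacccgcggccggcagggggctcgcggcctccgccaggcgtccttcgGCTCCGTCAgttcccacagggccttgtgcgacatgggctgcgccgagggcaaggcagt
TXNRD1, downstream start, chr12:104286782-104287081, plus strand: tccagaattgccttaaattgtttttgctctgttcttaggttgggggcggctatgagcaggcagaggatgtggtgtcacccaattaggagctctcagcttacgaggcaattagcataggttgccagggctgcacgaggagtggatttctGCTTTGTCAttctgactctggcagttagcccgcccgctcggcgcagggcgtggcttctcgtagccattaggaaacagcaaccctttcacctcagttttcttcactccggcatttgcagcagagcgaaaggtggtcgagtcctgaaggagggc
NQO1, chr16:69726511-69726810, minus strand: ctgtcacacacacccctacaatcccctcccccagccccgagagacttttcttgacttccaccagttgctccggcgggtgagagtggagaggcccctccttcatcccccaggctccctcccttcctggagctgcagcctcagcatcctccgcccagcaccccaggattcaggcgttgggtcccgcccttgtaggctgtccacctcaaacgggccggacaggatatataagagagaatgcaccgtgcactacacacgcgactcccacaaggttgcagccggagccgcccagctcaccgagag
GPX3, chr5:151020341-151020640, plus strand: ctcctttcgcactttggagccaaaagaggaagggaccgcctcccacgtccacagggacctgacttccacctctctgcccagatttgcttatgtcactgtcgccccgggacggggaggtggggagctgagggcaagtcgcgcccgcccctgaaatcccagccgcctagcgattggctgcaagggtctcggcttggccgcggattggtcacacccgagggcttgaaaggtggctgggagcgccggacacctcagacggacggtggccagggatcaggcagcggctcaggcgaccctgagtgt
GCLM, chr1:93909381-93909680, minus strand: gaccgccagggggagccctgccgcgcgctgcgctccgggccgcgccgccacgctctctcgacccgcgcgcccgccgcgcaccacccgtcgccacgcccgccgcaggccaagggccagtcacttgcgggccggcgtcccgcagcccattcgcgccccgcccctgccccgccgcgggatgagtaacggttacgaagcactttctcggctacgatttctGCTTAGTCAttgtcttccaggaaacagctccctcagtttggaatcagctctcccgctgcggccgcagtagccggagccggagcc
The upstream TXNRD1 window held 2 matches, TGACTTCGC at bases -99 to -91 and GCTCCGTCA at bases -8 to 1, where 1 is the first transcribed base. The downstream TXNRD1 window held GCTTTGTCA at bases -102 to -94, and the GCLM window GCTTAGTCA at bases -34 to -26. The NQO1 and GPX3 windows held no match, which says only that these letters are not within this stretch. Of the 10 members named, 8 had 11 windows, SRXN1 among them, and SLC7A11 and HMOX1 had no entry. Of the 11 windows, 4 held the core (both of TXNRD1, that of GCLM and 1 of KEAP1), where 13.3% of all 35116 promoter windows did. The AP-1 consensus TGACTCA, which shares its first 4 letters with the core, was in none of the members' windows and in 4.95% of all windows.

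Levels are FPKM, fragments per kilobase of transcript scaled to library size, as computed by the authors, and are per length, so genes can be compared within a line. Each log2 change is the mean log2(FPKM + 1) of NCI-H1650Re less that of NCI-H1650, a scale that understates the change of genes with low values. Estimated depth was 18.1 to 21.6 M fragments per library in NCI-H1650Re and 17.0 to 22.3 M in NCI-H1650. In both lines replicate 3 was the library least like the other 2, with Pearson correlations of 0.980 and 0.988 in NCI-H1650Re and 0.988 and 0.990 in NCI-H1650, against 0.994 and 0.997 between replicates 1 and 2. Nothing in the labels ties replicates to separate cultures, and the p-values therefore cover only the spread among these libraries, which may be technical. Of 8 epithelial and lung adenocarcinoma markers, 5 had values (KRT7, KRT8, KRT18, EPCAM and CDH1), and their summed level was 2925 to 2989 FPKM in NCI-H1650Re and 2812 to 3744 in NCI-H1650. The sum is mostly keratin RNA and its members moved apart. CDH1 was lower in NCI-H1650Re (120.01 to 166.08 FPKM, against 237.01 to 253.63 in NCI-H1650), as were EPCAM (96.67 to 116.02, against 139.25 to 164.14) and KRT8 (837.13 to 894.74, against 1019.33 to 1402.91). KRT7 was higher (960.51 to 1101.73 FPKM in NCI-H1650Re, against 712.46 to 942.12 in NCI-H1650), and KRT18 overlapped. Of 6 neuroendocrine markers, CHGA and SYP had values, with sums of 4.01 to 6.93 FPKM in NCI-H1650Re and 1.26 to 2.64 in NCI-H1650. Only CHGA was apart (2.22 to 5.15 FPKM in NCI-H1650Re, against 0.11 to 1.23 in NCI-H1650). SYP overlapped (1.37 to 1.79 FPKM in NCI-H1650Re, against 1.12 to 1.41 in NCI-H1650). Of 13 fibroblast, leukocyte and endothelial markers, 2 had values: COL1A1 was at 1.05 to 2.69 FPKM in NCI-H1650Re and 0.98 to 1.05 in NCI-H1650, and CD14 at 0.13 to 0.29 FPKM in NCI-H1650Re and 1.09 to 1.86 in NCI-H1650. The part of these markers in the results was not tested.

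The members did not move as one group. GPX3, SLC7A11 and TXNRD1 rose in NCI-H1650Re, NQO1 fell, and NFE2L2, KEAP1, GCLC, GCLM and HMOX1 did not pass the test. In limma's test with Benjamini-Hochberg adjustment over 11764 genes, 4 of the 9 members passed an adjusted p of 0.05, against 30.5% of all tested genes. By direction, 3 rose, against 16.6% of all genes, and 1 fell, against 13.9%. The members' median log2 change was 0.19, and that of all tested genes 0.03. The libraries of the lines did not overlap for 6 of the 9 members, against 47.2% of tested genes. For those 6 members the exact permutation test, two-sided, gave p = 0.1, the smallest value that 3 libraries per line allow. The members were chosen with earlier results of these data known, which the shares above do not take into account.

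**Figure D1:**
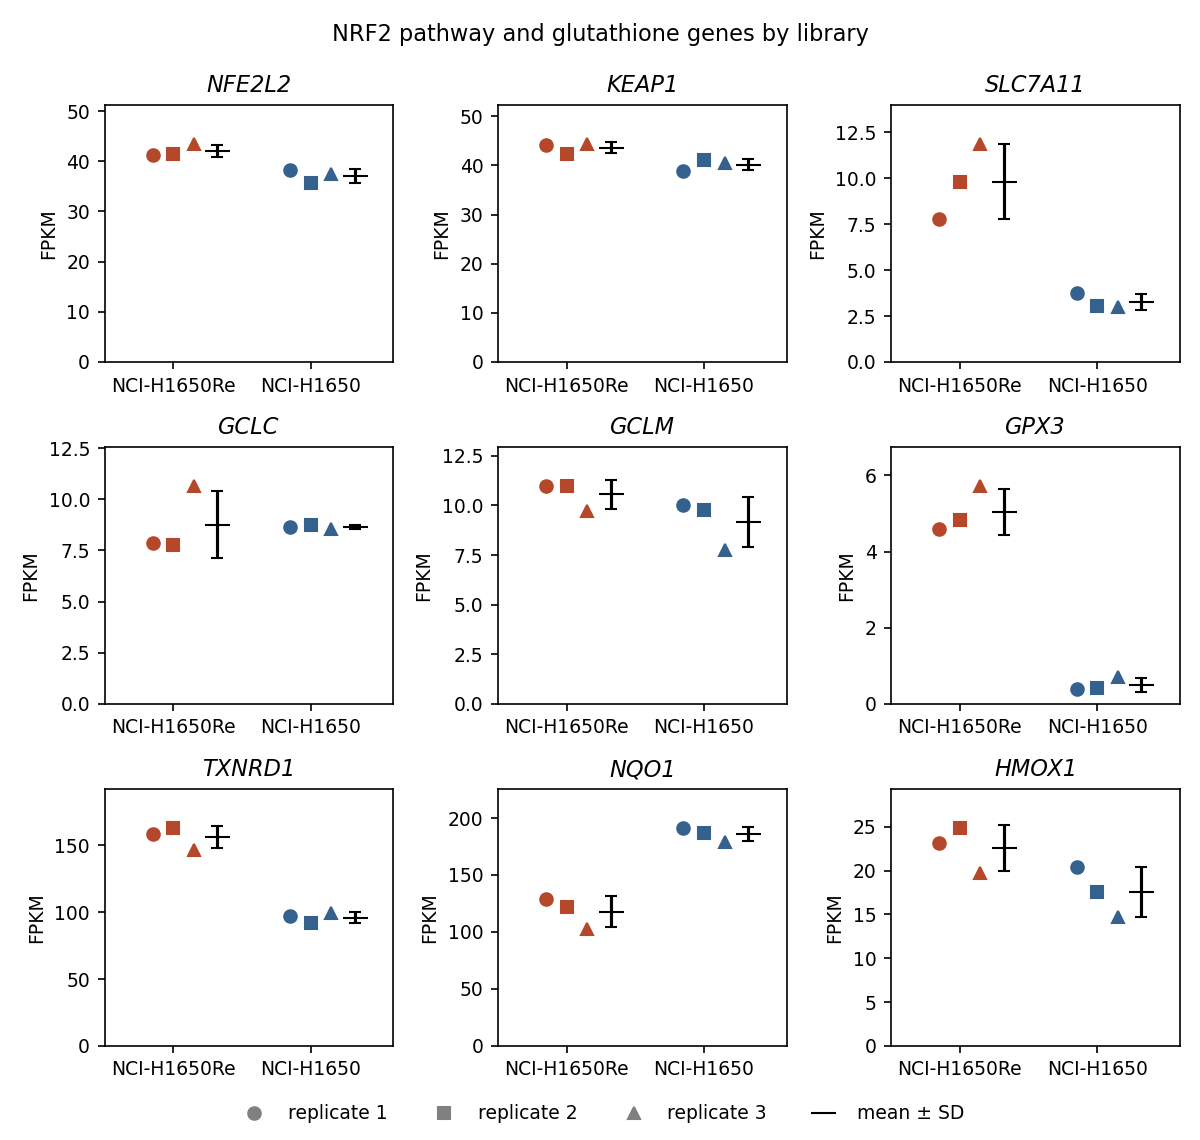
FPKM (vertical axes, from 0) of the 9 member genes in each library of NCI-H1650Re (left in each panel) and NCI-H1650 (right); marker shapes are replicates, and the black bars are mean ± SD of 3 libraries. GPX3, SLC7A11 and TXNRD1 are above NCI-H1650 in every NCI-H1650Re library and NQO1 is below, while the libraries of GCLC, GCLM and HMOX1 overlap.

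Neither NFE2L2 nor its repressor KEAP1 passed the test, and both had small differences. NFE2L2 was at 41.25, 41.39 and 43.41 FPKM in NCI-H1650Re replicates 1, 2 and 3, against 38.35, 35.6 and 37.43 in those of NCI-H1650. All 3 NCI-H1650Re libraries were thus higher, by a small margin. The log2 change was 0.17 (95% interval 0.03 to 0.32, limma adjusted p = 0.0726). KEAP1 was at 44.09, 42.36 and 44.33 FPKM in NCI-H1650Re, against 38.82, 41.01 and 40.48 in NCI-H1650. Here too the lines did not overlap, with a log2 change of 0.12 (95% interval -0.02 to 0.26, limma adjusted p = 0.178). The NFE2L2 to KEAP1 ratio within a library, the factor's RNA over that of its repressor, was 0.936, 0.977 and 0.979 in NCI-H1650Re, against 0.988, 0.868 and 0.925 in NCI-H1650. The log2 ratio differed by 0.06 between the lines (-0.05 ± 0.04 and -0.11 ± 0.09, SD, n = 3 each; exact two-sided permutation p = 0.4). It was 0.11 without NCI-H1650 replicate 1 and 0.012 without NCI-H1650 replicate 2. On the chromosome NFE2L2 overlaps AGPS, a gene on the opposite strand at 9.9 FPKM in NCI-H1650Re and 8.9 in NCI-H1650; no source used here says whether the counting used strand. The genes most like NFE2L2 over the 6 libraries, by the mean absolute gap between deviations from each gene's own mean on log2(FPKM + 1), were MYO5B and EIF4ENIF1 (0.014 each) and WDR1 (0.016).

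Of the supply and synthesis genes, the cystine importer rose and neither subunit of glutamate-cysteine ligase, which makes the precursor of glutathione, passed. SLC7A11, the subunit of system xc- that exchanges glutamate for the cystine used in glutathione, was at 7.8, 9.78 and 11.86 FPKM in NCI-H1650Re, against 3.78, 3.05 and 3.01 in NCI-H1650. Every NCI-H1650Re library was above every NCI-H1650 library, and the 3 NCI-H1650Re libraries differed among themselves more than the others did. The ratio of means was 2.99, and the log2 change was 1.32 (SE 0.14, limma adjusted p = 0.000971). Without both replicate 3 libraries the log2 change was 1.15 (limma adjusted p = 0.000516). Its deposited counts were 1528, 2034 and 2070 in NCI-H1650Re and 813, 569 and 493 in NCI-H1650, so counting error was small beside the spread.

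GCLC, the catalytic subunit of glutamate-cysteine ligase, was at 7.85, 7.76 and 10.65 FPKM in NCI-H1650Re, against 8.63, 8.74 and 8.56 in NCI-H1650. NCI-H1650Re replicate 3 was above all other libraries and the other 2 were below them. The log2 change was 0.00 (95% interval -0.26 to 0.27, limma adjusted p = 0.984), and without NCI-H1650Re replicate 3 it was -0.13 (limma adjusted p = 0.177). GCLM, the modifier subunit that raises the ligase's efficiency, was at 10.98, 10.98 and 9.7 FPKM in NCI-H1650Re, against 10.03, 9.75 and 7.74 in NCI-H1650. In each line replicate 3 was the lowest library, and the lines overlapped (log2 change 0.19, 95% interval -0.06 to 0.43, limma adjusted p = 0.208). Without NCI-H1650 replicate 3 the change was 0.083 (limma adjusted p = 0.485). The GCLC to GCLM ratio was 0.715, 0.707 and 1.1 in NCI-H1650Re, against 0.86, 0.896 and 1.11 in NCI-H1650. In both lines the ratio was highest in replicate 3, and its log2 difference of -0.21 did not pass (exact two-sided permutation p = 0.5). Leaving out replicate 3 of NCI-H1650Re gave a difference of -0.42, and leaving out that of NCI-H1650 gave -0.096.

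GPX3 had the largest change of the 9 members. It encodes an extracellular, selenium-containing glutathione peroxidase, known as the plasma form, which reduces peroxides with glutathione. Its level was 4.59, 4.82 and 5.72 FPKM in NCI-H1650Re, against 0.38, 0.41 and 0.7 in NCI-H1650. The lowest NCI-H1650Re library was far above the highest NCI-H1650 library, and in each line replicate 3 was the highest. The ratio of means was 10.2, and the log2 change was 2.02 (SE 0.12, limma adjusted p = 0.000176). GPX3 was tested only through NCI-H1650Re, as its NCI-H1650 mean of 0.497 FPKM lay below the filter of 1 FPKM. With smaller pseudocounts of 0.1 and 0.01 in place of 1, the log2 change was 3.14 and 3.37, since the NCI-H1650 values lie below 1 FPKM. The deposited counts were 164, 183 and 182 in NCI-H1650Re and 15, 14 and 21 in NCI-H1650. On these counts the log2 change was 3.34 with edgeR (adjusted p = 0.000183) and 3.36 with DESeq2 (adjusted p = 1.42e-20). Both tests ran only on the genes that the authors had marked as regulated, which were selected for their change.

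By the likeness measure used for NFE2L2, the genes closest to GPX3 were SLC7A5, a large neutral amino acid transporter, with a mean absolute gap of 0.092, then SUN3 (0.150) and the spermine oxidase SMOX (0.168). SLC7A5 was at 629 ± 13.5 FPKM in NCI-H1650Re and 166 ± 23.5 in NCI-H1650 (SD, n = 3 each). This order depends on the pseudocount of 1, which shrinks the change of GPX3. With a pseudocount of 0.1 the closest genes were CSPG4 (0.156), ADM2 (0.244) and VTN (0.312), and SLC7A5 was in place 33 (0.604). With 0.01 they were CSPG4 (0.179), ADM2 (0.251) and SH3RF3 (0.333), and SLC7A5 was in place 45 (0.716). For NFE2L2 the same 3 genes came first with all 3 pseudocounts.

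TXNRD1 and NQO1, the members with the highest levels, moved in opposite directions. TXNRD1, the cytosolic selenoenzyme that regenerates reduced thioredoxin with NADPH, was at 158.65, 163.16 and 146.9 FPKM in NCI-H1650Re, against 97.29, 91.64 and 99.18 in NCI-H1650. The lines were well apart (ratio of means 1.63, log2 change 0.70, SE 0.07, limma adjusted p = 0.000721). NQO1, the quinone reductase often used as an indicator of NRF2 activity, was at 129.18, 122.18 and 102.23 FPKM in NCI-H1650Re, against 191.32, 187.09 and 178.96 in NCI-H1650. No NCI-H1650Re library reached the lowest NCI-H1650 library (ratio of means 0.634, log2 change -0.66, SE 0.09, limma adjusted p = 0.00254). The NQO1 to TXNRD1 ratio was 0.814, 0.749 and 0.696 in NCI-H1650Re, against 1.97, 2.04 and 1.8 in NCI-H1650. TXNRD1 was thus the more abundant RNA in each NCI-H1650Re library and NQO1 in each NCI-H1650 library. This ratio was chosen after its values were seen and was not tested. TXNRD1 overlaps EID3, a gene on the same strand at 1.11 FPKM in NCI-H1650Re and 1.07 in NCI-H1650.

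HMOX1, the inducible haem oxygenase that opens haem to biliverdin, iron and carbon monoxide, was at 23.18, 24.89 and 19.72 FPKM in NCI-H1650Re, against 20.4, 17.57 and 14.66 in NCI-H1650. Replicate 3 was the lowest library of each line, and the lowest NCI-H1650Re library lay below the highest NCI-H1650 library. The log2 change of 0.35 (95% interval 0.05 to 0.66) did not pass (limma adjusted p = 0.0759). It passed without NCI-H1650Re replicate 3 (0.44, limma adjusted p = 0.0292), without NCI-H1650 replicate 1 (0.46, limma adjusted p = 0.0467) and without both replicate 3 libraries (0.33, limma adjusted p = 0.0233).

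**Figure D2:**
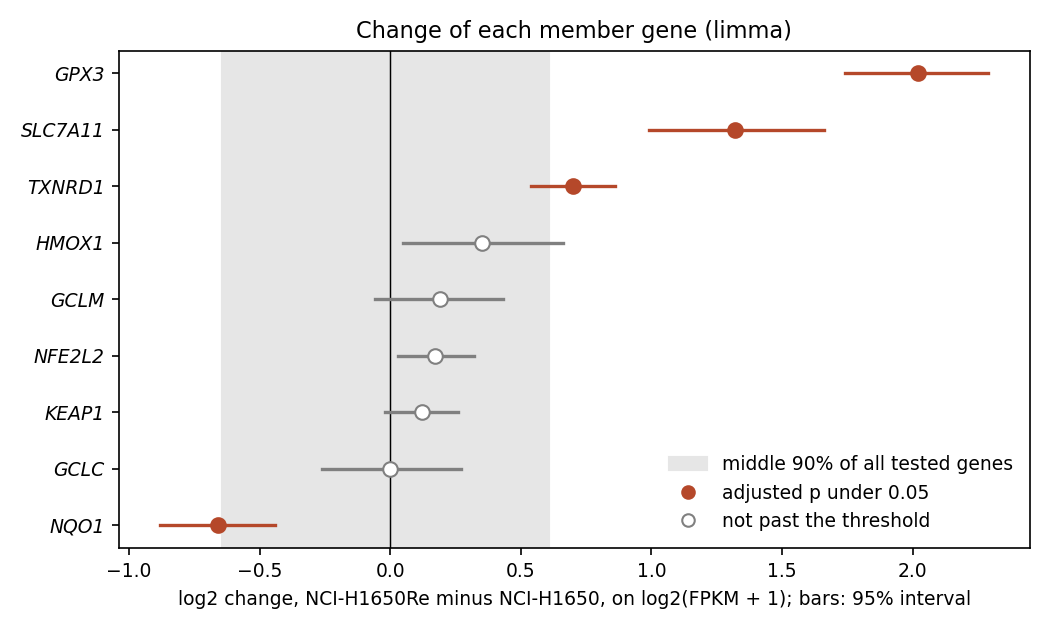
Log2 change of each member, NCI-H1650Re less NCI-H1650, from log2(FPKM + 1) (horizontal axis), with its 95% interval from limma; filled points passed an adjusted p of 0.05, and the grey band holds the middle 90% of all tested genes, from -0.65 to 0.61. GPX3 (2.02), SLC7A11 (1.32), TXNRD1 (0.70) and NQO1 (-0.66) lie at or beyond the edges of the band, and the other 5 members lie within it.

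GPX3 and SLC7A11 were the 2 of 9 members that the authors' deposited table marked, both as up. Of its 12659 genes, 320 were marked up and 540 down, or 6.79% in either direction. The log2 fold changes in the authors' deposited table were 3.33 for GPX3, 1.55 for SLC7A11, 0.67 for TXNRD1 and -0.69 for NQO1. Genes marked in the authors' deposited table all had a log2 fold change of at least 1 in size, which TXNRD1 (FDR 5.59e-08) and NQO1 (FDR 2.44e-07) did not reach. For HMOX1 the authors' deposited table gave 0.33 (FDR 0.0752), for GCLM 0.17 (FDR 0.352), for NFE2L2 0.15 (FDR 0.354), for KEAP1 0.09 (FDR 0.598) and for GCLC -0.01 (FDR 0.981).

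The order of the members' levels differed between the lines. In NCI-H1650Re it was TXNRD1 (156 ± 8.39 FPKM), NQO1 (118 ± 14.0), KEAP1 (43.6 ± 1.07), NFE2L2 (42.0 ± 1.21), HMOX1 (22.6 ± 2.63), GCLM (10.6 ± 0.739), SLC7A11 (9.81 ± 2.03), GCLC (8.75 ± 1.64) and GPX3 (5.04 ± 0.597; SD, n = 3 throughout). Neighbours in this order overlapped between KEAP1 and NFE2L2, between GCLM and SLC7A11 and between SLC7A11 and GCLC. In NCI-H1650 it was NQO1 (186 ± 6.28 FPKM), TXNRD1 (96.0 ± 3.92), KEAP1 (40.1 ± 1.14), NFE2L2 (37.1 ± 1.40), HMOX1 (17.5 ± 2.87), GCLM (9.17 ± 1.25), GCLC (8.64 ± 0.0907), SLC7A11 (3.28 ± 0.433) and GPX3 (0.497 ± 0.177). There, GCLM and GCLC were the only neighbours whose libraries overlapped. SLC7A11 thus stood between the ligase subunits in NCI-H1650Re and below both in NCI-H1650.

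NQO1 lies on chromosome 16 (69706996 to 69726951, GRCh38, GENCODE 29) among genes that were mostly lower with it. Of the 24 nearest tested genes, 12 on each side, 20 fell, none rose and their median log2 change was -0.52, beside -0.66 for NQO1. The part of these neighbours in the fall of NQO1 was not tested. GPX3 rose among genes that did not: on chromosome 5 (151020438 to 151028993) none of its 24 neighbours rose, 11 fell and their median was -0.29. The 24 neighbours of SLC7A11 on chromosome 4 (138164097 to 138242349) had a median of 0.14, with 6 higher and 1 lower. Those of TXNRD1 on chromosome 12 (104215779 to 104350305) had a median of 0.07, with 5 higher and 2 lower.

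**Figure D3:**
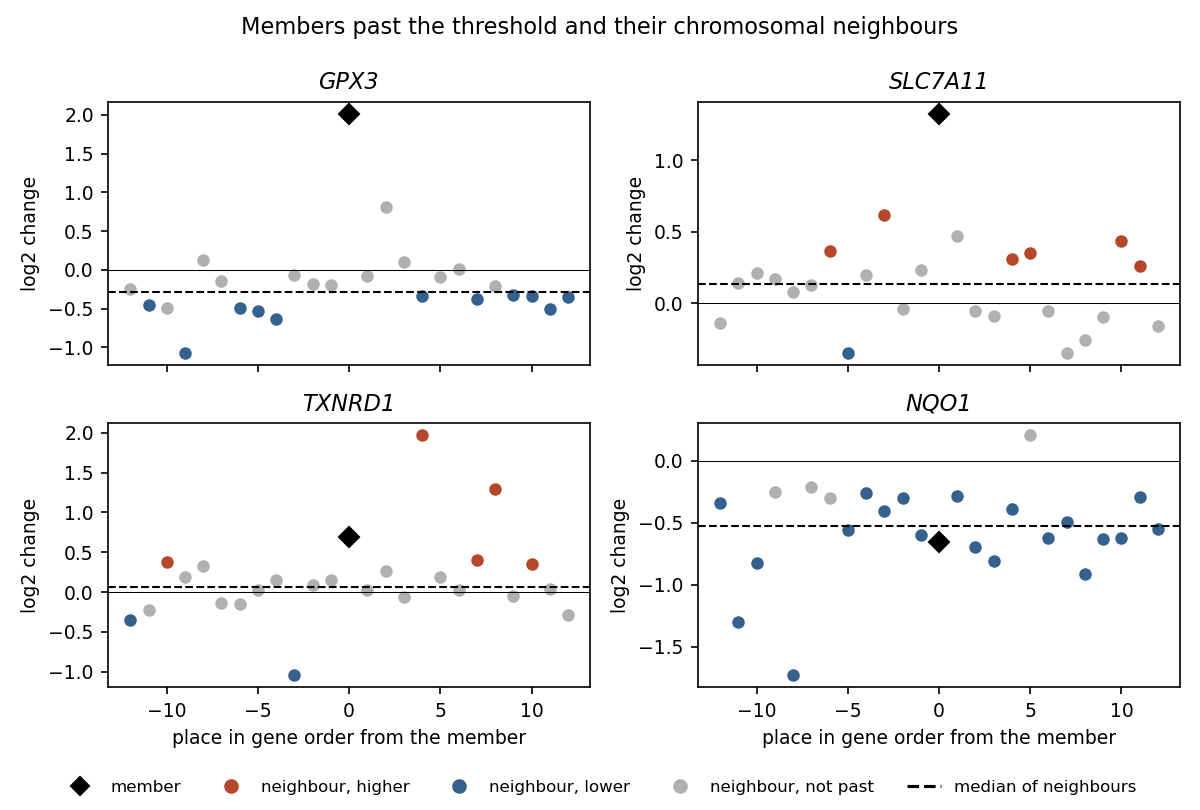
Log2 change (vertical axes, scaled per panel) of the 4 members past the threshold (diamonds) and their 24 nearest tested genes (circles), by place in gene order; dashed lines are the neighbours' medians. NQO1 sits near its neighbours' median of -0.52, while GPX3, SLC7A11 and TXNRD1 sit above medians of -0.29, 0.14 and 0.07.

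The wider set of antioxidant genes was mixed in the same way. Of 131 other genes in 8 lists by role, 107 were tested, and 18 rose, 12 fell and 77 did not pass, near the shares of 16.6% and 13.9% over all genes. Their median log2 change was 0.05. Among the calls, GSTM3 and OSGIN1 were tested only through NCI-H1650Re, where they were higher, and ABCC2 and NNT only through NCI-H1650. These lists, like the members, were chosen with earlier results of these data known. Without NCI-H1650Re replicate 2, and likewise without NCI-H1650 replicate 2, 8 rose and 7 fell. Of all tested genes, 7.88% rose and 8.26% fell without that NCI-H1650Re library, and 7.64% rose and 7.53% fell without that NCI-H1650 library. Without both replicate 3 libraries 33 of 108 rose and 14 fell, where 23.7% of all tested genes rose and 19.4% fell.

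In the glutathione synthesis and turnover list 4 of 12 rose and 2 fell (median log2 change 0.18). SLC3A2, the heavy chain that carries SLC7A11 to the membrane, rose to 303 ± 8.26 FPKM in NCI-H1650Re, against 113 ± 16.1 in NCI-H1650 (SD, n = 3 each; log2 change 1.43, limma adjusted p = 0.000227). It also pairs with other amino acid transporters, SLC7A5 among them. CHAC1, which breaks glutathione down, was at 11.95, 17.65 and 23.32 FPKM in NCI-H1650Re, against 4.44, 3.32 and 5.6 in NCI-H1650 (log2 change 1.75, limma adjusted p = 0.00214). OPLAH, the oxoprolinase that returns glutamate from the same cycle, rose by 1.14 on the log2 scale (13.9 ± 0.845 and 5.89 ± 1.44 FPKM, limma adjusted p = 0.00171). CBS, the first enzyme from homocysteine toward cysteine, rose by 0.85 (5.87 ± 0.301 and 2.84 ± 0.499 FPKM, limma adjusted p = 0.00153). The genes that fell were CNDP2 (16.9 ± 1.74 and 24.3 ± 0.739 FPKM, log2 change -0.5, limma adjusted p = 0.00462) and GGT1 (46.5 ± 1.48 and 54.3 ± 1.3 FPKM, log2 change -0.22, limma adjusted p = 0.0318). Glutathione synthetase GSS was at 53.0 ± 1.77 and 51.1 ± 0.288 FPKM and glutathione reductase GSR at 17.4 ± 1.95 and 20.4 ± 1.96, in NCI-H1650Re and NCI-H1650, and neither passed (limma adjusted p = 0.535 and 0.135).

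Among 15 regulators and partners of NRF2, 2 rose and 1 fell (median log2 change 0.05). BACH1, which competes with NRF2 for the response element and represses HMOX1, was at 3.27, 3.45 and 3.83 FPKM in NCI-H1650Re, against 4.86, 5.05 and 4.49 in NCI-H1650 (log2 change -0.36, limma adjusted p = 0.0155). The call was lost without NCI-H1650Re replicate 2 (adjusted p = 0.0649) or NCI-H1650 replicates 1 (0.0544) or 2 (0.0758). MAFF, a small MAF partner, was at 9.86, 12.85 and 7.04 FPKM in NCI-H1650Re, against 3.51, 3.73 and 7.11 in NCI-H1650. Its lines overlapped in replicate 3 (log2 change 0.94, limma adjusted p = 0.0316), and the call was lost without NCI-H1650Re replicates 1 (0.0670) or 2 (0.111) or NCI-H1650 replicates 1 (0.105) or 2 (0.113). PGAM5, a mitochondrial phosphatase that binds KEAP1, had a log2 change of 0.34 (limma adjusted p = 0.0226). That call was lost without NCI-H1650Re replicates 1 (0.0549) or 2 (0.0877) or NCI-H1650 replicates 1 (0.0760) or 2 (0.0826).

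In the thioredoxin, peroxiredoxin and glutaredoxin list 3 of 21 rose and 4 fell (median log2 change 0.11). Thioredoxin TXN rose (200 ± 9.01 and 165 ± 3.38 FPKM in NCI-H1650Re and NCI-H1650, log2 change 0.27, limma adjusted p = 0.0169), as did TXNRD2 (log2 change 0.28, limma adjusted p = 0.0359). SESN2, a stress-induced sestrin, rose to 13.9 ± 3.22 FPKM in NCI-H1650Re, against 4.35 ± 0.602 in NCI-H1650 (log2 change 1.46, limma adjusted p = 0.00105). Of its 24 neighbours 9 rose and none fell, with a median log2 change of 0.24, where 16.6% of all tested genes rose. The part of these neighbours was not tested. TXNIP, which binds and inhibits thioredoxin, fell to 11.3 ± 3.62 FPKM in NCI-H1650Re, against 20.4 ± 1.80 in NCI-H1650 (log2 change -0.84, limma adjusted p = 0.0139). Without NCI-H1650Re replicate 2 the TXNIP call was lost (adjusted p = 0.0573). The peroxiredoxin PRDX2 (log2 change -0.38, limma adjusted p = 0.0304), the methionine sulfoxide reductase MSRB1 (-0.37, 0.0311) and TXNRD3 (-0.36, 0.0245) also fell. The PRDX2 call was lost without NCI-H1650Re replicates 1 (0.0767) or 2 (0.118) or NCI-H1650 replicates 1, 2 or 3 (0.0615, 0.101 and 0.0781). That of MSRB1 was lost without NCI-H1650Re replicate 1 (0.0717) or NCI-H1650 replicates 1, 2 or 3 (0.0519, 0.118 and 0.0745), and without both replicate 3 libraries (0.0650).

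Of 14 quinone, carbonyl and conjugation targets 3 rose and 3 fell (median log2 change 0.06). The rise of OSGIN1 (1.5 and 0.937 FPKM in NCI-H1650Re and NCI-H1650, log2 change 0.37, limma adjusted p = 0.0287) was tested only through NCI-H1650Re. The efflux pump ABCC1, which exports glutathione conjugates, fell to 18.9 ± 1.32 FPKM in NCI-H1650Re, against 42.4 ± 0.734 in NCI-H1650 (log2 change -1.12, limma adjusted p = 0.000181). As with NQO1, most of its 24 neighbours were lower too. Of them, 19 fell past the threshold and none rose past it, with a median log2 change of -0.72. The part of these neighbours was not tested. The epoxide hydrolase EPHX1 fell by 0.66 on the log2 scale (33.8 ± 4.04 and 53.9 ± 2.49 FPKM, limma adjusted p = 0.00243) among neighbours with a median of 0.02. ABCC2, another conjugate exporter, fell by 0.62 at a low level (0.520 ± 0.0173 and 1.33 ± 0.0721 FPKM, limma adjusted p = 0.00333), and its log2 change was -1.34 with a pseudocount of 0.01. It was tested only through NCI-H1650. PIR, which encodes pirin, had a log2 change of 0.44 (limma adjusted p = 0.0260), a call lost without NCI-H1650Re replicates 1 (0.0552) or 2 (0.103) or NCI-H1650 replicates 2 (0.0950) or 3 (0.0689).

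Of 13 other glutathione peroxidases and transferases 1 rose and none fell (median log2 change -0.01). GPX1 was at 167 ± 12.2 FPKM in NCI-H1650Re and 143 ± 20.9 in NCI-H1650, and GPX4, which protects lipids from peroxidation, at 176 ± 7.19 and 178 ± 10.5, and neither passed (limma adjusted p = 0.147 and 0.917). Both stood far above GPX3 in each line. GSTM3, whose reads could be shared with related transferases, had a log2 change of 0.52 (limma adjusted p = 0.0317), and of 0.98 with a pseudocount of 0.01. It was tested only through NCI-H1650Re (1.56 FPKM), as its NCI-H1650 mean of 0.773 FPKM lay below the filter. The call was lost without NCI-H1650Re replicates 1 (0.0582) or 2 (0.105) or any 1 NCI-H1650 library (0.103, 0.0851 and 0.0544 without replicates 1, 2 and 3).

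In the NADPH supply list 2 of 8 rose and 1 fell (median log2 change 0.04). The pentose phosphate enzyme PGD rose to 91.9 ± 8.45 FPKM in NCI-H1650Re, against 67.2 ± 2.36 in NCI-H1650 (log2 change 0.44, limma adjusted p = 0.00675). Of its 24 neighbours 6 rose and none fell, with a median log2 change of 0.16, where 16.6% of all tested genes rose. Their part was not tested. NNT, the mitochondrial transhydrogenase, fell by 0.54 on the log2 scale (0.917 ± 0.0924 and 1.79 ± 0.189 FPKM, limma adjusted p = 0.00659), and its log2 change was -0.96 with a pseudocount of 0.01. It was tested only through NCI-H1650. IDH1 had a log2 change of 0.29 (limma adjusted p = 0.0367), lost without NCI-H1650Re replicates 2 (0.143) or 3 (0.0627), without NCI-H1650 replicates 1, 2 or 3 (0.111, 0.120 and 0.0514), with median-of-ratios scaling (0.0580) and with quantile normalization (0.0516).

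Haem and iron genes rose in 2 of 13 and fell in 1 (median log2 change 0.04). SLC48A1, a haem transporter, rose to 7.15 ± 0.836 FPKM in NCI-H1650Re, against 3.13 ± 0.873 in NCI-H1650 (log2 change 1.0, limma adjusted p = 0.00348). HMOX2, the constitutive haem oxygenase, had a log2 change of 0.36 (limma adjusted p = 0.0123), lost when replicate 2 of NCI-H1650Re (0.0587) or of NCI-H1650 (0.0611) was left out. NCOA4, the receptor that delivers ferritin for breakdown, fell by 0.67 (21.1 ± 2.57 and 34.0 ± 2.54 FPKM, limma adjusted p = 0.00325), and 20 of its 24 neighbours fell and none rose, with a median of -0.58. Of 11 genes of selenoprotein synthesis, which TXNRD1 and GPX3 need, 1 rose and none fell (median log2 change 0.00). That gene, SEPHS1, rose by 0.58 (49.4 ± 2.07 and 32.6 ± 1.92 FPKM, limma adjusted p = 0.00137), and 19 of its 24 neighbours rose and none fell, with a median of 0.53. SEPHS2, which makes the selenium donor, was at 27.4 ± 0.734 FPKM in NCI-H1650Re and 24.5 ± 0.959 in NCI-H1650 and did not pass (limma adjusted p = 0.105). The part of these neighbours was not tested.

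**Figure D4:**
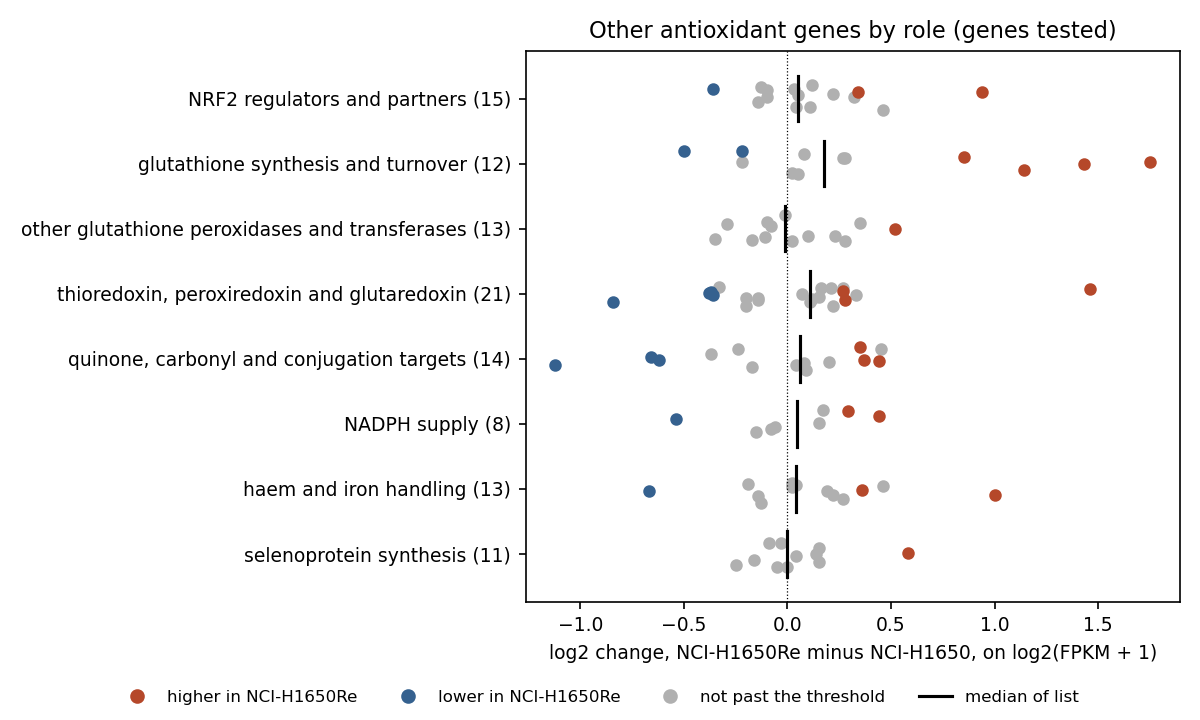
Log2 change of 107 other antioxidant genes in 8 lists by role (points; horizontal axis, NCI-H1650Re less NCI-H1650, from log2(FPKM + 1)), with each list's median as a black line and the number of genes tested in brackets. Points past the threshold lie on both sides in most lists, and the 4 rises of the synthesis and turnover list, from 0.85 for CBS to 1.75 for CHAC1, are its most distant points.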

How the data were processed

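Polyadenylated RNA of 3 libraries of NCI-H1650Re and 3 of NCI-H1650 was sequenced; per the labels' protocols, a miRNeasy kit was used for extraction and a BGI kit for the mRNA libraries. HISAT2, Bowtie2, RSEM, DESeq2 and the mouse build mm10 appear in the submitters' processing notes, whereas the identifiers are human; the human build and the filter of the table are not given in the sources used here. The authors deposited FPKM for 12659 genes and read counts for the 860 they marked as regulated. The log2 fold changes and FDR (adjusted p-values) are the authors', per the file headers.

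The 11764 genes whose mean reached 1 FPKM in one or both lines were tested with limma 3.58.1 (R 4.3.3) on log2(FPKM + 1) with a variance trend, and p-values were adjusted by Benjamini-Hochberg at 0.05. Of the members and the genes of the wider lists past the threshold, GPX3, GSTM3 and OSGIN1 reached 1 FPKM only in NCI-H1650Re. ABCC2 and NNT reached it only in NCI-H1650. For the marked genes, edgeR 4.0.16 and DESeq2 1.42.0 were run on the deposited counts. Library depth was estimated from counts over FPKM, in 207 genes for its ratio between libraries and in 10 for its level. The limma script was run on simulated data with normal noise and changes planted only in genes above a set level. That run does not cover changes in genes at low levels. Members and lists were chosen with earlier results of these data known. The named genes are the members, up to 4 genes past the threshold per list by size of change, and the 3 genes most like NFE2L2 and the member that changed most. After their values were seen, GSS, GSR, GPX1, GPX4, SEPHS2, CNDP2, GGT1, TXN, TXNRD2, TXNRD3 and OSGIN1 were added. These added genes were not followed singly through the alternatives. The look at chromosomal neighbours and the other pseudocounts for the genes of like pattern were added after the data were seen. Positions are from GENCODE 29 and promoters from RefSeq. Of the 131 genes of the wider lists, 109 were found in the table by Ensembl identifier and SOD2 by name; members were matched by name. Alternatives were pseudocounts, filters, scalings, no variance trend, a replicate block and libraries left out.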

Additional observations from a re-analysis of the deposited data

How the results depend on the processing

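The calls of GPX3, SLC7A11, TXNRD1 and NQO1 held under every alternative run, with log2 changes of 1.94 to 3.37, 1.15 to 1.58, 0.66 to 0.76 and -0.73 to -0.56. For GPX3 and SLC7A11 the runs include edgeR and DESeq2, which covered only genes that the authors had marked for their change. The value of 1.58 for SLC7A11 came from those runs. NFE2L2, KEAP1, GCLC and GCLM passed under no alternative. With a filter of 5 FPKM, GPX3 and SLC7A11 were tested only through their NCI-H1650Re means. The change of GCLC, 0.0035, turned to -0.021 with median-of-ratios scaling, -0.019 with quantile normalization and -0.14 without both replicate 3 libraries; single libraries left out gave -0.13 to 0.074. HMOX1 passed without both replicate 3 libraries (0.33), and single libraries left out gave 0.24 to 0.46. Counts of members changed were 4 or 5. With single libraries left out, 1785 to 4478 of all genes changed, against 3587, and 15 to 42 of the wider antioxidant genes, against 30; without both replicate 3 libraries 47 of these wider genes and 5080 of all genes (43.2%) did. The share of rises among all calls was 54.4%, and 49.2% with median-of-ratios scaling. Of 359 values of the 23 named genes of the wider lists, 41 lost their call and none changed sign. These values include the edgeR and DESeq2 runs for those of the genes that the authors had marked.

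Same-numbered libraries deviated together with correlations of 0.17, -0.04 and 0.21 for replicates 1, 2 and 3. Unlike-numbered libraries gave -0.26 to 0.23, so the numbers were not taken to pair the samples. NCI-H1650Re replicate 3 gave -0.15 and -0.18 with NCI-H1650 replicates 1 and 2. A shared deviation of the replicate 3 libraries was not tested. With a replicate block HMOX1 passed (0.35, limma adjusted p = 0.0288), MAFF did not (0.94, limma adjusted p = 0.0614), 3522 genes changed and the other members kept their side of the threshold.

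GPX3 rests on 14 to 21 counts per library in NCI-H1650, which limits the precision of its fold change.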
